A study of Mus musculus with 3 samples.

Results

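Myeloid growth factors are secreted or membrane-bound proteins that keep blood precursors alive and drive them to become macrophages, neutrophils and dendritic cells. The 7 genes described here are the ligand genes Csf1, Il34, Csf2, Csf3 and Flt3l and the receptor genes Csf1r and Csf3r, taken from 18865 genes measured on the arrays. They were chosen by name, as all probesets whose platform annotation names exactly 1 of these genes, and all 7 were measured, with 6 to 33 probesets each. A probeset is a small group of probes that reads about 1 exon.

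In the marrow, stromal cells are a known source of CSF1, and blood cells carry the matching receptors. CSF1 and IL-34 share the receptor CSF1R of monocytes, macrophages and osteoclast precursors. CSF3 (G-CSF) acts on neutrophils and their precursors through CSF3R, CSF2 (GM-CSF) acts on several myeloid lineages, and the Flt3 ligand supports early progenitors and dendritic cells through FLT3.

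The samples were 3 arrays of 1 group, hybridised with RNA of freshly isolated, flow-sorted GFP-positive bone marrow cells from C57BL/6 mice in which the nestin gene promoter drives GFP. There was no second group, so each gene was set against background genes of its own array. Whether separate mice or separate sorts gave the 3 samples is not stated in the labels, and the p-values therefore cover the spread between these samples alone, which may be technical. The sort rests on this reporter alone, as far as the labels say, and the age of the mice is not given in the sources used here.

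Values are the authors' log2 expression values, and a gene's value on an array is the median of its probesets. The background was formed by 352 smell and taste receptor genes, most of which are restricted to sensory tissue. They had a median of 5 probesets, against 13 over all genes. The extent of the background was settled after calls had been seen, and the calls that a narrower set changes are given beside the genes. The threshold of an array was their 95th percentile, at 5.40, 5.61 and 5.65 on arrays 1, 2 and 3. A gene was called above background where limma's one-sided test gave a Benjamini-Hochberg adjusted p below 0.05 over all genes. Of all 18865 genes, 51.0% were called. Of the 352 background genes 9 were, a number that the percentile nearly fixes. Among 34 genes of hepatocytes, photoreceptors and spermatids, which had no part in the threshold, 4 were called (11.8%), namely Apoa2, Prm1, Prm2 and Acr with mean margins of 1.02 to 1.70. A stricter threshold, taken from these 34 genes, called 17.1% of all genes. Probe affinity differs, so no gene is ranked above another by its level. Pearson's r between arrays was 0.933 to 0.946 across genes, which are not independent replicates.

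The label names only GFP-positive marrow cells, and markers of stroma were looked up first. Of 14 perivascular stroma genes 12 were called, at both thresholds, against 51.0% and 17.1% of all genes, among them Cxcl12 with a level of 11.75 ± 0.14 on the log2 scale (SD, n = 3), Cdh11 with 11.63 ± 0.17, Adipoq with 11.60 ± 0.12 and the leptin receptor gene Lepr with 11.38 ± 0.12. Nes, whose promoter drives the reporter, was not called, with 5.97, 5.21 and 5.56 on arrays 1, 2 and 3. Endothelial genes set array 2 apart, since all 14 measured had their lowest value there, against 6199 of all 18865 genes. Cdh5, the gene of VE-cadherin, had 9.14, 6.05 and 9.58 on arrays 1, 2 and 3. Emcn, Pecam1 and Stab2 were called too and Sox17 was not. The endothelial count was 11 of 14 with all arrays, 6 without array 1, 13 without array 2 and 8 without array 3. Only 2 of the 14, Emcn and Pecam1, passed the stricter threshold, against 17.1% of all genes. The calls of Cdh5 and Stab2 were lost without array 1, and those of Tek, Flt4 and Robo4 without array 1 or array 3, while Kdr and Esam were called without array 2.

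The ligands split into a called and an uncalled set. Csf1, Il34 and Flt3l lay above background on every array and passed both thresholds, while Csf2 and Csf3 lay below the threshold on every array. That is 3 of 5 ligands called (60%), against 51.0% of all genes, so the count itself is near the background. Under the stricter threshold 3 of 5 were again called, against 17.1% of all genes.

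Csf1 encodes the growth factor of macrophages and osteoclast precursors. Its level was 9.30, 9.24 and 9.13 on arrays 1, 2 and 3, a mean of 9.22 ± 0.09 (SD, n = 3). The 3 arrays lay close together, and 10.1% of all genes had a range no wider. The mean margin over the threshold was 3.67 ± 0.19 (SE, n = 3; adjusted p = 8.15e-07, limma).

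Il34 encodes the second ligand of CSF1R, known mainly from skin and brain. Its level was 9.13, 9.30 and 9.41 on arrays 1, 2 and 3, a mean of 9.28 ± 0.14 (SD, n = 3). Each array stood at least 3.69 above its own threshold, and the mean margin was 3.73 ± 0.18 (SE, n = 3; adjusted p = 6.04e-07, limma). Both ligands of CSF1R were thus called in the same 3 samples.

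Flt3l encodes the Flt3 ligand. Its level was 7.84, 8.25 and 7.86 on arrays 1, 2 and 3, a mean of 7.98 ± 0.23 (SD, n = 3). Array 2 was the highest, and each array lay at least 2.21 above its threshold, with a mean margin of 2.43 ± 0.19 (SE, n = 3; adjusted p = 5.78e-06, limma). Under the stricter threshold Flt3l had the weakest support of the called ligands (adjusted p = 0.00317, limma).

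Csf2 and Csf3 encode GM-CSF and G-CSF, which many cells make mainly after inflammatory stimulation. Csf2 had 4.31, 4.10 and 4.52 on arrays 1, 2 and 3, a mean margin of -1.24 ± 0.19 (SE, n = 3; adjusted p = 1, limma). Csf3 had 4.45, 4.70 and 4.43, a mean margin of -1.03 ± 0.18 (SE, n = 3; adjusted p = 1, limma). Both were below threshold on every array, yet above the median of the background genes, which was 3.41, 3.45 and 3.33. Each gene rests on only 6 probesets, and a low level of transcript below this background would not have been detected.

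**Figure D1:**
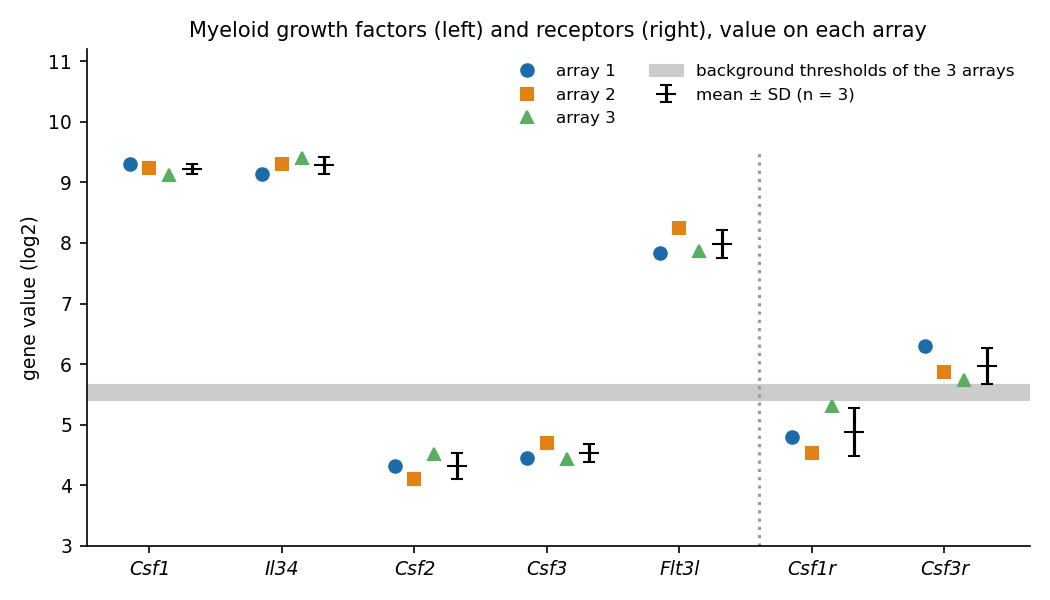
Gene values on the log2 scale (vertical axis) of the 5 ligands and 2 receptors on each of the 3 arrays, with the mean and SD beside them. The grey band spans the background thresholds of the arrays (5.40 to 5.65), with Csf1, Il34 and Flt3l above it, Csf2, Csf3 and Csf1r below it and Csf3r just above it.

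Neither member receptor was called. By limma 0 of 2 member receptors were called, with 1 of 2 below 0.05 before adjustment, against 51.0% of all genes called. In bulk RNA, fewer cells of a type and less RNA per cell cannot be told apart. Csf1r, which marks monocytes, macrophages and osteoclast precursors, had 4.80, 4.53 and 5.31 on arrays 1, 2 and 3. It lay below the threshold on every array, lowest on array 2 and nearest to the threshold on array 3, with a mean margin of -0.67 ± 0.21 (SE, n = 3; adjusted p = 1, limma).

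Csf3r, the receptor gene of neutrophils, stood at the border. Its level was 6.31, 5.87 and 5.73 on arrays 1, 2 and 3, and its margins over the threshold were 0.90, 0.25 and 0.08. All 3 arrays were above the threshold, array 1 by the most. The mean margin of 0.41 ± 0.22 (SE, n = 3) did not pass (unadjusted p = 0.0454, adjusted p = 0.0856, limma). It passed when probesets were averaged and no median was taken (adjusted p = 0.0189, limma). With a minimum of 8 probesets per gene, which left 70 background genes with a median of 9 probesets, it also passed (adjusted p = 0.0361, limma). With a background narrowed to 339 or 346 genes it did not pass (adjusted p = 0.0684 and 0.0611, limma). Under the stricter threshold its margin was -1.02.

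Most probesets of the called ligands lay above the probesets of the background genes. A gene's value is the median of these same probesets, so the shares below are not independent of the calls. A probeset was counted as above background where it exceeded, on all 3 arrays, the 95th percentile of the background genes' probesets, which was 6.998, 7.18 and 6.99 on arrays 1, 2 and 3. Of all named probesets 27.5% did so, and of the background genes' own probesets 3.64% did. Csf1 had 14 of 16 probesets above (87.5%), Il34 had 11 of 12 (91.7%) and Flt3l had 9 of 14 (64.3%), the lowest of its other 5 averaging 2.78. Where on the genes these probesets lie was not known here. Over all called genes the median share was 37.5%, with quartiles of 23.1% and 57.1%, and all 3 called ligands lay above the upper quartile.

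Within a gene the probesets spread widely. The probeset means over the 3 arrays ran between 5.76 and 11.86 in Csf1, between 5.54 and 11.27 in Il34 and between 2.78 and 10.36 in Flt3l. This spread within a gene mixes probe affinity with exon use, which cannot be told apart here.

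Csf2 and Csf3 each had 0 of 6 probesets above the probeset threshold on all 3 arrays. The highest Csf2 probeset averaged 6.11. The highest Csf3 probeset had 5.46, 7.95 and 6.49 on arrays 1, 2 and 3, so that it passed on array 2 alone. The other Csf3 probesets reached at most 5.32 on any array.

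The receptors had a few high probesets each. Csf1r had 5 of 33 above on all arrays (15.2%) and Csf3r had 4 of 26 (15.4%). Over all uncalled genes the median share was 6.67%, with an upper quartile of 14.3%, so both receptors lay slightly above that quartile. The forms differed. In Csf3r the 4 high probesets averaged 7.64 to 7.79. In Csf1r a single probeset had 10.46, 10.08 and 10.41 on arrays 1, 2 and 3, while the next highest averaged 7.92 and the gene's probeset median was 4.82.

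**Figure D2:**
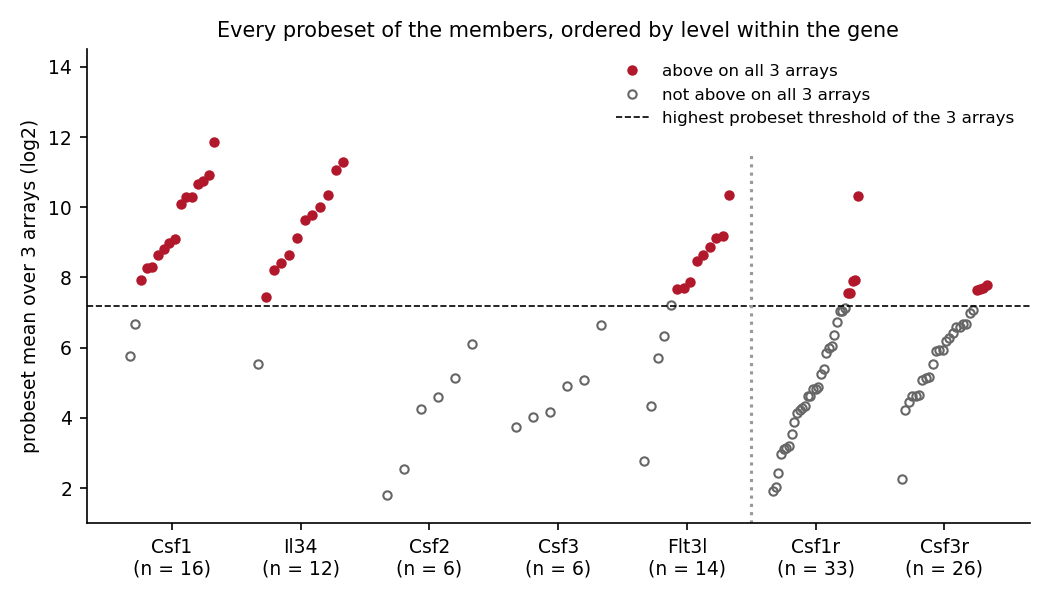
Mean over the 3 arrays, on the log2 scale (vertical axis), of every probeset of the 7 genes, ordered by level within each gene, with n the number of probesets. Filled points exceeded the probeset threshold of the array on all 3 arrays. Csf1, Il34 and Flt3l have 14, 11 and 9 filled points, Csf2 and Csf3 have none, and Csf1r has a single point at 10.32 far above its others.

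Promoter sequences are shown for the 4 members found in a RefSeq promoter table (GRCm38.p6), as the called ligands Csf1 and Flt3l, the uncalled ligand Csf2 and the border receptor Csf3r can be read side by side. Each is the 250 bases before the annotated start, 5′ to 3′ on the gene's strand. They lie at chr3:107760470-107760719 (minus strand) for Csf1, chr7:45136433-45136682 (minus strand) for Flt3l, chr11:54249900-54250149 (minus strand) for Csf2 and chr4:126024409-126024658 (plus strand) for Csf3r. Capitals mark every match, on either strand, to the GC box GGGCGG, the TATA box TATAAA or GAGGAA, the core letters bound by the myeloid factor PU.1.
Csf1: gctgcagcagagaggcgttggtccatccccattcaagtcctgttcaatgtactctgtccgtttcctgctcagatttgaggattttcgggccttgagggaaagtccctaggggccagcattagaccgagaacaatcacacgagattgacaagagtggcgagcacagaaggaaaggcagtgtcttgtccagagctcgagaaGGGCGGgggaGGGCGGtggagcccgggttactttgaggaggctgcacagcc
Flt3l: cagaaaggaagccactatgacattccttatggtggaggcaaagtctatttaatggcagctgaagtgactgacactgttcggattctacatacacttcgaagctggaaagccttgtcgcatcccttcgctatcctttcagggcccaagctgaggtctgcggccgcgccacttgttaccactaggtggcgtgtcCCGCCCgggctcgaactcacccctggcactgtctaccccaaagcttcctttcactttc
Csf2: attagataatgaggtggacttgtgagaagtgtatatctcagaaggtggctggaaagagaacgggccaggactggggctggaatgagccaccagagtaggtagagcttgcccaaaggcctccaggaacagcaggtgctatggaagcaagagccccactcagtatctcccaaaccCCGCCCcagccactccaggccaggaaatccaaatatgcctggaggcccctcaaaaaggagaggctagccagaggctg
Csf3r: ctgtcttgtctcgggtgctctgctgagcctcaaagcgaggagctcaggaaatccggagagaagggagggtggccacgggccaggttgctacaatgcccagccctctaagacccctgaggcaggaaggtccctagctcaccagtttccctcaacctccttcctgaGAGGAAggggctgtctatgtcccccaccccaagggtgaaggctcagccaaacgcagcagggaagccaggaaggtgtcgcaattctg
Csf1 held 2 GC boxes, Flt3l 1 and Csf2 1, while 32.7% of 32851 promoters of this length hold at least 1. These are 3 of the 5 ligands, and Il34 and Csf3 were not searched. None of the 4 held TATAAA, which 12.4% of promoters hold. Of the 4, Csf3r alone held GAGGAA, at 1 place, as 23.3% of promoters do. None of these matches overlapped. A match is a description of letters and not a bound site.

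Each ligand was then set beside its own receptor. In the CSF1R axis both ligands were called and the receptor was not. In the FLT3 axis, likewise, Flt3l was called and Flt3 was not, with 4.99, 5.24 and 4.70 on arrays 1, 2 and 3, below the threshold each time (adjusted p = 1, limma). These statements compare each gene with background, and no level of a ligand was tested against that of a receptor.

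The CSF2 axis was the other way round. Csf2 was not called, while both chains of its receptor were. Csf2ra, the ligand-binding alpha chain, had 6.33, 6.93 and 6.45 on arrays 1, 2 and 3, a mean margin of 1.01 ± 0.19 (SE, n = 3; adjusted p = 0.00107, limma). Csf2rb, the beta chain shared with the IL-3 and IL-5 receptors, had 6.66, 6.18 and 6.68, a mean margin of 0.95 ± 0.20 (SE, n = 3; adjusted p = 0.00208, limma). Neither passed the stricter threshold (adjusted p = 1 for both, limma), and their margins were no larger than those of the 4 called hepatocyte and spermatid genes (1.02 to 1.70). Csf2rb2, the related IL-3-specific beta chain of the mouse, had 7.47, 4.36 and 6.15, varied widely and was not called (adjusted p = 0.349, limma), although it was without array 2. Csf2rb and Csf2rb2 share much of their sequence, so probe signal for one may include the other.

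In the CSF3 axis the ligand was not called and the receptor stood at the border, as given above. Human IL-34 is also reported to bind the phosphatase PTPRZ1 and the proteoglycan syndecan-1. Ptprz1 had 4.68, 5.25 and 5.64 on arrays 1, 2 and 3 and was not called (adjusted p = 1, limma). Sdc1 had 6.91, 7.48 and 7.75 and was called at the first threshold (adjusted p = 3.97e-05, limma) and not at the stricter one (adjusted p = 0.357, limma).

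**Figure D3:**
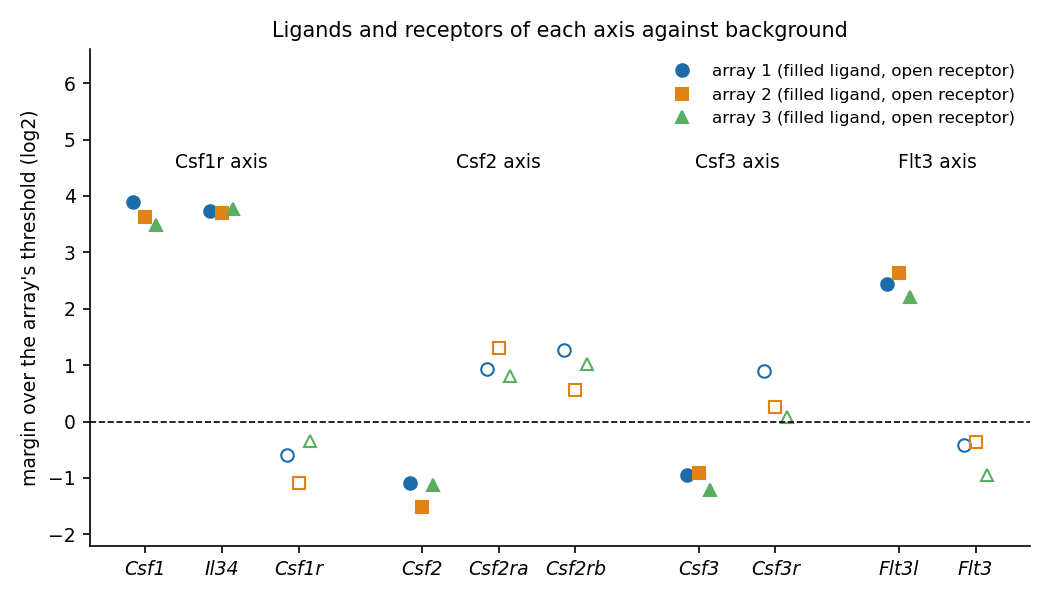
Margin of each gene over the threshold of the same array (vertical axis, log2), with ligands as filled and receptors as open symbols, grouped by receptor axis, and the dashed line at the threshold. Csf1, Il34 and Flt3l lie above the line and Csf1r and Flt3 below it on all 3 arrays, while Csf2 and Csf3 lie below it and Csf2ra, Csf2rb and Csf3r above it.

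Over the other myeloid receptors 6 of 10 measured genes were called, against 51.0% of all genes. The 10 include Sdc1 and Ptprz1, listed as possible binders of IL-34, and the erythropoietin receptor gene Epor. Sdc1 and Epor were among the 6 called. Their median margin was 0.80, against 0.52 over all genes. At the stricter threshold 0 of 10 passed by limma, against 17.1% of all genes, with 1 of the 10 below 0.05 before adjustment. Il3ra, the IL-3 receptor alpha chain, had the largest margin of the list (2.01 ± 0.19, SE, n = 3), with a level of 7.51, 7.77 and 7.41. Kit, the stem cell factor receptor of progenitors, had 5.92, 7.01 and 6.69 on arrays 1, 2 and 3, lowest on array 1, a mean margin of 0.98 (adjusted p = 0.00244, limma). Il5ra, the receptor chain of eosinophils, had the smallest margin, with a mean level of 2.67 ± 0.45 (SD, n = 3).

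Other factors that act on blood cells were also split. Of 10 measured 4 were called (40%), against 51.0% of all genes, and the list's median margin was -0.34. The same 4 passed the stricter threshold, against 17.1% of all genes. The 4 were Cxcl12, the stem cell factor gene Kitl with a level of 10.62 ± 0.27, the lymphoid factor gene Il7 with 8.72 ± 0.32 and Tnfsf11, the gene of the osteoclast factor RANKL, with 8.04 ± 0.37 (SD, n = 3 each). Il3 had the smallest margin, with a level of 3.34 ± 0.14, beside its chromosomal neighbour Csf2. Il6 (4.24, 3.56 and 2.91) and Lif (5.34, 4.74 and 4.17), further inducible cytokine genes, were not called either.

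Genes that act on the production or release of colony-stimulating factors were listed as 9 receptors, regulators and sheddases. Of these 8 were called, against 51.0% of all genes, and 5 passed the stricter threshold, against 17.1%. Their median margin was 2.17, against 0.52 over all genes, and the list as a whole was not tested. Il1r1, the receptor of IL-1, a known inducer of Csf3 and Csf2 in stromal cells, had a level of 10.51, 11.29 and 10.87 on arrays 1, 2 and 3 (adjusted p = 2.77e-07, limma). Tnfrsf1a, the main TNF receptor gene, had 8.55, 9.29 and 8.97 (adjusted p = 1.31e-06, limma). Thus these receptors were called in the same arrays in which Csf2 and Csf3 were not. Adam10 and Adam17, proteases that shed membrane proteins, had 8.54 ± 0.07 and 7.77 ± 0.50 (SD, n = 3 each), and ADAM17 is known to release membrane-bound CSF1. Cebpb had the smallest margin (0.33 ± 0.19, SE, n = 3) and was not called (adjusted p = 0.110, limma).

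Signalling genes that act below these receptors, which most cells use, were called in 14 of 18 cases, against 51.0% of all genes. Their median margin was 1.69, and 7 passed the stricter threshold, against 17.1% of all genes. Jak1 had a level of 9.63 ± 0.63, the regulatory subunit gene Pik3r1 9.33 ± 0.26, Stat3 8.60 ± 0.23 and Stat5a 8.55 ± 0.37 (SD, n = 3 each). Members that are largely restricted to blood cells were among those not called. Pik3cg had the smallest margin, with a level of 5.28 ± 0.11, Inpp5d, the gene of the phosphatase SHIP1, had 5.61 ± 0.37 (adjusted p = 0.625, limma), and Ptpn6, the gene of SHP-1, had 5.95 ± 0.14 (adjusted p = 0.0606, limma). With a background of 339 or 346 genes Ptpn6 was called (adjusted p = 0.0432 and 0.0372, limma). Tyrobp, the myeloid adaptor DAP12, was called, with 6.03, 7.48 and 7.45 on arrays 1, 2 and 3 (adjusted p = 0.00101, limma).

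Of 7 myeloid transcription factor genes 5 were called, against 51.0% of all genes, with a median margin of 1.09. The stricter threshold was passed by 3 of the 7, against 17.1% of all genes. Spi1, which encodes PU.1, a known activator of Csf1r and Csf3r, had 5.29, 5.83 and 5.66 on arrays 1, 2 and 3 and was not called (adjusted p = 0.666, limma). Runx1, which stromal cells also express, had a level of 9.83 ± 0.32 and Cebpa, also an adipogenic factor, 7.77 ± 0.54 (SD, n = 3 each). Klf4 was lowest on array 2, with 9.21, 6.94 and 9.36, and Cebpe, a neutrophil factor, had 6.71, 6.37 and 6.86.

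Markers of the blood cells that carry these receptors gave 16 calls among 58 genes over 5 lists (27.6%), against 51.0% of all genes. Of 17 monocyte and macrophage genes 6 were called (35.3%), with a median margin of 0.20. The stricter threshold was passed by 1 of them, against 17.1% of all genes. The summed level of the list was 10.39, 10.67 and 10.85 on the log2 scale on arrays 1, 2 and 3. This is the log2 of the genes' summed linear values, so bright genes weigh most in it. Adgre1, the gene of F4/80, had 4.33, 4.32 and 4.09, below the threshold on every array as Csf1r was. Lyz2 had 5.93, 6.72 and 8.03, highest on array 3 like Csf1r, and Cybb had 8.27, 9.43 and 7.79. Mertk had 6.34, 7.45 and 7.67 and Ms4a7, with the smallest mean margin of the list, 4.34, 4.12 and 3.64. The call of Mrc1, a gene of macrophages and sinusoidal endothelium (8.39, 4.44 and 9.15), did not survive leaving out array 1 or array 3. With a background of 339 or 346 genes it was not made (adjusted p = 0.0578 and 0.0594, limma), against an adjusted p of 0.0473 with 352 genes.

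Genes of neutrophils were called in 6 of 12 cases (50%), near the 51.0% of all genes, with a median margin of 0.42. Of the 12, 2 passed the stricter threshold, against 17.1% of all genes. The summed level of the neutrophil list was 10.72, 10.78 and 11.59 on arrays 1, 2 and 3. It was highest on array 3, where Csf3r was lowest, while the list's median was highest on array 2 (5.52, 6.24 and 6.16). S100a8 had a level of 9.55, 9.56 and 10.32, Camp 8.51, 7.85 and 8.24, and Mpo, a gene of neutrophil precursors, 6.59, 8.28 and 9.69. Ngp had 7.57, 6.32 and 8.13. Cxcr2 and Ly6g, surface markers of mature neutrophils, were below the threshold on every array, with Ly6g at 3.84, 3.04 and 2.82. The part of neutrophil RNA in the Csf3r signal was not tested.

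Pan-leukocyte genes were called in 3 of 13 cases, against 51.0% of all genes, with a median margin of -0.0011. Of the 13, 1 passed the stricter threshold, against 17.1% of all genes. The summed level of the pan-leukocyte list was 10.08, 9.64 and 9.90 on arrays 1, 2 and 3. Ptprc, the gene of CD45, had 4.54, 4.37 and 5.14 on arrays 1, 2 and 3, below the threshold on every array. Its order over the arrays was that of Csf1r, and the list's median had this order too, with 5.30, 5.24 and 5.76. The summed level of the list was highest on array 1, where Lcp2, the brightest of the 13, had 8.98. Lcp2 had a level of 8.47 ± 0.51 and Rac2 6.67 ± 0.46 (SD, n = 3 each), while Cd48 had the smallest margin, with 3.70 ± 0.48. The call of Hcls1 (6.00, 5.69 and 7.04) was lost without array 1 and without array 3.

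Osteoclasts, which depend on CSF1 and RANKL, gave 1 call among 8 marker genes, against 51.0% of all genes. The called gene was Ctsk with a level of 8.74 ± 0.27, which mesenchymal cells also express. Atp6v0d2 had 3.59 ± 0.10 (SD, n = 3 each). Dendritic cell genes, which mark cells that depend on the Flt3 ligand, gave 0 of 8 calls by limma, against 51.0% of all genes. Before adjustment 2 of the 8 were below 0.05. The count of dendritic calls moved with the processing. It was 3 of 8 with the mean over probesets, 2 of 7 with at least 8 probesets per gene and 1 of 8 under several other settings, among them leaving out array 2, when Zbtb46 was called. With a background of 339 or 346 genes Batf3 was called (adjusted p = 0.0372 and 0.0319, limma), against an adjusted p of 0.0526 with 352 genes. Clec9a had the smallest margin, with a level of 4.69 ± 0.37 (SD, n = 3).

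**Figure D4:**
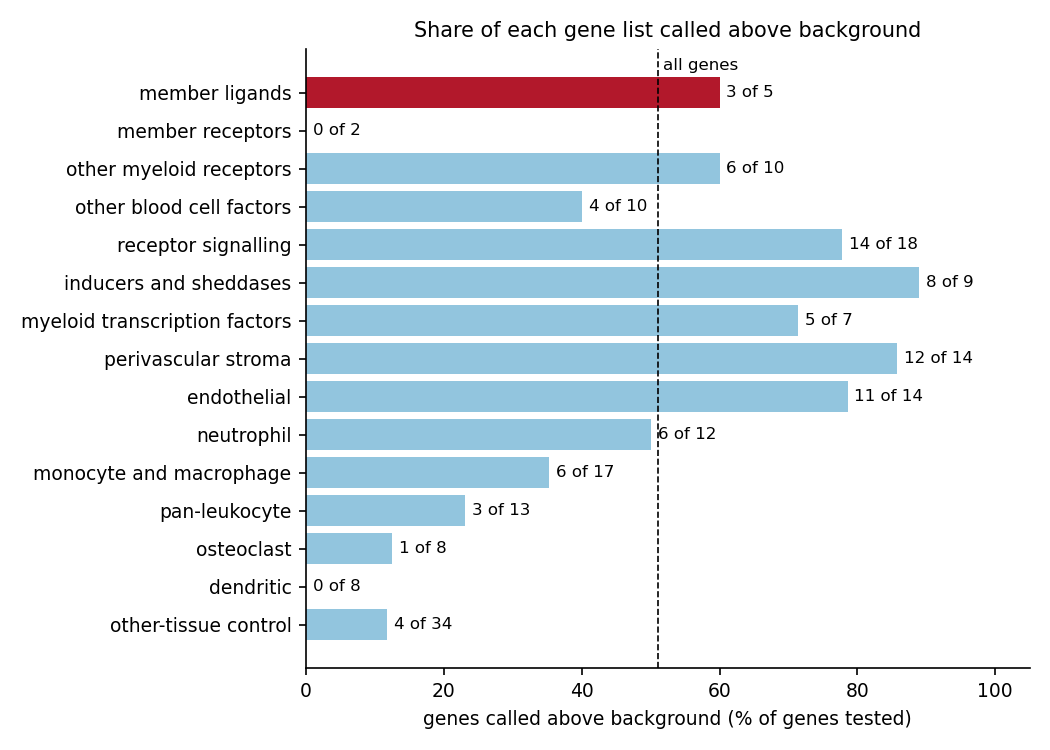
Share of the tested genes of each list called above background (horizontal axis, percent), with the number called of the number tested beside each bar and the dashed line at the 51.0% of all genes. The ligands stand at 3 of 5 and the receptors at 0 of 2, perivascular stroma at 12 of 14 and the pan-leukocyte list at 3 of 13.

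Between arrays the 5 ligands had narrower ranges than the 2 member receptors. The range over the 3 arrays was 0.18 for Csf1, 0.28 for Il34, 0.43 for Csf2, 0.27 for Csf3 and 0.41 for Flt3l on the log2 scale, against 0.77 for Csf1r and 0.57 for Csf3r. All 5 ligand ranges lay in the lower 40.5% of all genes, and those of Csf1r and Csf3r exceeded 72.5% and 56.2%. With 3 arrays of 1 group these ranges were not tested. None of the 3 called ligands was lowest on array 2, where endothelial genes were, while Csf1r and Csf2 had their lowest values there. Of all 18865 genes 6199 were lowest on array 2, and of 13 pan-leukocyte genes 9 were. In the other blood lists 2 of 17 monocyte and macrophage, 4 of 12 neutrophil, 3 of 8 osteoclast and 3 of 8 dendritic genes were.

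Of the 2 member receptors Csf1r had the wider range, and Csf2 had the widest of the 5 ligands. Among 2139 genes with a mean above the threshold and a range of at least 1, the profiles nearest to that of Csf1r over the 3 arrays were those of Lman2, Calcrl and Sec61a1, at distances of 0.16, 0.17 and 0.18 on the log2 scale. Those nearest to Csf2 were Pepd, Lman2 and Calcrl, at 0.42 each. Both Csf1r and Csf2 had a range below 1, so genes as narrow as they were left out of the candidates. That filter by itself sets a lower limit to the distances. With 3 arrays many genes share any given order, so these names are a description only.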

How the data were processed

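The file deposited by the authors holds 1256831 probesets on each of 3 arrays, in log2 units. Affymetrix Expression Console 1.1 and RMA were used, per the submitters' processing notes. RMA corrects background, equalises the arrays' distributions and summarises probes, which hides differences in total signal between arrays. RMA settings and annotation build were not given in the sources used here. Array medians were 5.20, 5.22 and 5.24. Whole-transcript amplification for small inputs preceded labelling, per the labels' protocols. The number of arrays limits the precision.

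A table of the platform's annotation gave 1 symbol for 318760 probesets, and 4227 old symbols were updated through RefSeq synonyms (GRCm38.p6). Genes needed at least 4 probesets. The margin of each gene over the array's threshold was tested against 0 with limma 3.58.1 (R 4.3.3; a mean and no other term). On simulated data with 18865 genes the test called 1 of 50 genes at the threshold, 50 of 50 placed 2 log2 units above it and 37 of 50 placed 0.5 above.

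The text names every member and, from each list, up to 4 called genes with the largest margin and the 1 with the smallest, with Flt3, Csf2ra, Csf2rb and Ptprz1 always. Apoa2, Prm1, Prm2, Acr, Tek, Flt4, Robo4, Kdr, Esam, Csf2rb2, Epor, Il6, Lif, Zc3h12a, Tyk2, Inpp5d, Ptpn6, Tyrobp, Adgre1, Cx3cr1, Cxcr2, Ltf, Ptprc, Batf3, Zbtb46 and Pdgfrb were named outside this rule, after their values were seen. Members and lists were chosen with earlier results of these data known. The plan named the background only as olfactory, vomeronasal and bitter taste receptors. Which symbols to count was settled on the data in 3 steps, with 339 genes without pseudogenes, 346 with those named Olfr and 352 with the Vmn2r pseudogenes too. The last step was taken after the calls under 346 genes had been seen, to come nearer to the number in an earlier analysis of these data. Both narrower sets were therefore added as alternatives after seeing the data. The 12 alternatives planned earlier changed the summary over probesets, the probeset minimum, the threshold, the variance model or the arrays used.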

Additional observations from a re-analysis of the deposited data

How the results depend on the processing

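The calls of Csf1, Il34 and Flt3l, and the missing calls of Csf2, Csf3 and Csf1r, were the same under every alternative that gave a value, and the count of called ligands stayed at 3. Over the alternatives the margin ran between 2.24 and 3.80 for Csf1, 2.30 and 3.86 for Il34, 0.996 and 2.56 for Flt3l, and -2.11 and -0.01 for Csf1r. With at least 8 probesets per gene, Csf2 and Csf3 gave no value. Csf3r was called in 2 settings, with a margin of 0.39 for the mean over probesets and of 0.54 with at least 8 probesets, so that 1 of 2 receptors was called in each. Its margin was -0.084 with at least 1 probeset per gene, -0.79 with the 99th percentile threshold and -1.02 with the other-tissue background. The 99th percentile threshold is higher by construction. That of the other-tissue background was higher by its measured values, at 7.21, 6.96 and 6.79 on arrays 1, 2 and 3. It rests on few of its 34 genes, and on array 1 it lay between Prm2 (7.14) and Apoa2 (7.34). These 2 thresholds called 3924 and 3221 of all genes, against 9624. Of 138 genes of the pathway and marker lists they called 39 and 36, against 74. Under them the margins of Csf2ra were -0.19 and -0.42 and those of Csf2rb -0.25 and -0.48. The call of Csf2rb was also lost with at least 1 probeset per gene (margin 0.45, adjusted p = 0.0706, limma). With a background of 339 or 346 genes, alternatives chosen after seeing the data, 9774 and 9847 of all genes were called and 75 of the 138 listed genes under both. The calls of the 7 members were the same, and among listed genes those of Ptpn6, Batf3 and Mrc1 changed. Averaging over probesets gave Ptprz1 a margin of 0.042, still not called. The cause of the changes with the probeset summary was not tested. With these 4 changes of threshold or background set left aside, the monocyte and macrophage count was 2 to 6, the pan-leukocyte count 2 to 5 and the endothelial count 6 to 13. The 99th percentile threshold and the other-tissue background gave 1 and 1 for monocytes and macrophages, 1 and 1 for pan-leukocyte genes and 3 and 2 for endothelial genes. Leaving out 1 array also ended the calls of Epor and Cx3cr1 (array 1), Zc3h12a (arrays 1 or 3) and Tyk2 and Ltf (arrays 2 or 3), each with an adjusted p of at least 0.0119 with all arrays. Without array 2 the variance was fully pooled over genes by limma. No paired analysis was possible because there is only 1 group. Dim genes such as Csf2 and Csf3 have only an upper bound, set by the background.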

Other observations

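The single high probeset of Csf1r was looked at after its values were seen. It stood 5.50 log2 units above the gene's probeset median. Among 1955 uncalled genes with at least 20 probesets, 9.62% had a highest probeset at least as far above their own median, and the median distance was 3.60. For Csf3r the distance was 1.71, and 98.6% of these genes had one at least as large. In the RefSeq table the protein-coding gene before Csf1r is Pdgfrb, a receptor gene of mesenchymal cells. Pdgfrb had 10.02, 10.04 and 9.44 on arrays 1, 2 and 3, lowest on array 3, while the probeset was lowest on array 2. The protein-coding genes before Csf1, Il34 and Flt3l had means of 10.09, 8.09 and 10.04. Whether a neighbouring gene adds to the probeset's signal was not tested. The position of the probeset within or near Csf1r is not given in the sources used here.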
